A study of Mus musculus with 12 samples.

Results

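The genes described here encode the subunits of the mitochondrial respiratory chain and of the ATP synthase that it drives, with the assembly factors whose symbols share their prefixes. They were taken by symbol alone, as every gene starting with Nduf, Sdha, Sdhb, Sdhc, Sdhd, Uqcr, Cox4i, Cox5, Cox6, Cox7, Cox8 or Atp5 that had a probe set annotated to it and to no other gene. This gave 91 of the 17097 genes on the array, and the rule itself uses no measured value. A gene with several such probe sets (42 of the 91) was read from the one with the highest mean over the 12 arrays. By complex, 40 members belonged to complex I (1 of them a pseudogene, Ndufs5-ps), 8 to complex II, 7 to complex III, 19 to complex IV and 17 to complex V. Assembly factors were counted with the complex that they help to build. A further 10 protein-coding genes that fit the rule in the RefSeq annotation were not analysed here. The subunits encoded by mitochondrial DNA were not analysed here either, so every value below is a nuclear transcript.

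The samples came from the tail skin of adult CD1 mice during wound healing (WH). A wound 3 mm across was made, and 4 days (D4) or 7 days (D7) later a 4 mm punch took the leading edge (LE), the rim of epidermis that borders the wound, and a 6 mm punch took the proliferative hub, the ring outside it. Control skin was cut on the same day far from the wound in wounded mice, so the controls shared the animals' wound but not its site. From each region 300 basal cells, high for α6-integrin and negative for CD34, were sorted, which keeps interfollicular and infundibular basal cells and drops the CD34+ hair follicle bulge. Each of the 6 groups (LE, hub and control, at D4 and at D7) had 2 arrays, and each array stood for a pool of 5 mice. The sort used no marker of migrating or dividing cells, so each LE or hub value is an average over all basal cells of that ring. Every sample title marks its array as a biological and not a technical replicate. Beyond that label, the sources used here do not state whether both arrays of a group came from separate pools. The p-values therefore measure the spread between these arrays, and how much of it is biological and how much technical was not tested.

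As background, the chain sits in the inner mitochondrial membrane. Complex I takes electrons from NADH and complex II takes them from succinate, both pass them through ubiquinone to complex III, and cytochrome c carries them on to complex IV, which reduces oxygen to water. Complexes I, III and IV pump protons as electrons pass, and complex V, the ATP synthase, lets the protons back through its membrane part (Fo) to turn the rotor that drives ATP synthesis in its head (F1). In complexes I, III and IV a catalytic core, part of it encoded by mitochondrial DNA, is surrounded by small accessory subunits encoded in the nucleus. Keratinocytes also make ATP by glycolysis, and a wound edge cut off from its vessels is a known site of low oxygen.

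All values are log2 signals from the deposited normalization, and the difference between group means is a log2 fold change. The arrays of D4 had medians of 5.4 to 5.47 and those of D7 medians of 4.25 to 4.28, and the members' medians in control skin differed between the days by 0.99 against 1.03 for all genes. Levels were therefore compared only within a day. The 2 arrays of a group correlated at 0.9881 to 0.9942 across genes, and the median absolute difference between them over the members ran between 0.066 in control D7 and 0.156 in LE D4. The sorted population carried its labelled markers, since all 10 basal keratinocyte markers lay above the array median on all 12 arrays while Cd34 lay below it. Of 12 markers of striated muscle, a tissue rich in mitochondria, and 6 of adipocytes, 8 and 4 lay below the median of every array and none was called in any comparison. Some markers of other cells did move with the LE: Cd68 and S100a4 among 9 immune markers were called higher at D4, and Cdh5 and Cldn5 among 6 endothelial markers at D7, when the mean of the endothelial list was 5.29 to 5.44 on the LE arrays, 4.25 to 4.5 on the hub arrays and 4.28 to 4.57 on the control arrays, although Cldn5 itself lay below the median of every array, as did 6 of the immune markers. Krt1 and Krt10 of suprabasal cells at D4, Krt15 of the follicle on both days with Sox9 at D4 and Plet1 at D7, Mitf of melanocytes on both days and Dcn of fibroblasts at D7 were called lower in the LE. At D4 the mean of the 7 melanocyte markers was 4.93 and 5.03 on the LE arrays. It was 5.21 and 7.41 on the hub arrays and 5.25 and 6.65 on the control arrays. Among the basal markers Dst was lower on both days (-1.06 and -0.89), Lama3 was higher on both (0.87 and 0.46), and Lamb3 (0.76) and Itga6 (0.42) were higher at D4. Their part in the results on the LE was not tested. Transcripts per cell and numbers of cells of a type cannot be told apart in such sorted bulk samples.

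In the LE, a minority of the respiratory chain genes were called higher, 14 at D7 and 6 at D4, and none was called lower. The share called higher was below that of all genes at D4 and above it at D7. At D4, 6 of 91 members were called higher than in control skin of the same day (Ndufaf4, Ndufa4, Ndufb7, Uqcrfs1, Atp5pb and Ndufa11), and 0 were called lower. That is 6.59% of the members, beside 8.3% of all genes called higher and 5.83% called lower. At D7, 14 of 91 were called higher (15.4%) and 0 lower, beside 9.25% of all genes called higher and 5.37% called lower. A call was an adjusted p under 0.05 in limma, with Benjamini-Hochberg adjustment over all 17097 genes. At an unadjusted p under 0.05, 19 members were higher and 2 lower at D4 (15.1% and 10.5% of all genes), and 34 higher and 2 lower at D7 (16.5% and 10.7%). The members are bright, with 85 above the median of the gene means and 65 among the 1710 genes with the highest means, below called the bright genes, and bright genes were called more often. Of the 65 bright members 4 (6.15%) were called higher at D4 and 11 (16.9%) at D7, against 16.5% and 20.2% of the bright genes. The share of members called was thus below that of the bright genes on both days, a difference that was not tested.

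Most members, called or not, had a slightly higher mean in the LE, although not all and at D4 not on every measure. The median log2 fold change over the 91 members in the LE was 0.12 at D4 and 0.21 at D7, beside 0.03 and 0.02 for all genes and 0.07 and 0.10 for the bright genes. At D4 69 members, and at D7 78, had a higher mean in the LE than in control skin, where all genes gave 56.5% and 54.2% and the bright genes 56.5% and 60.3%. Counting only members whose LE arrays both lay above both control arrays, with no test, 40 (44.0%) did so at D4, against 29.2% of all genes and 41.5% of the bright genes, and 67 (73.6%) at D7, against 31.5% and 51.2%. The opposite arrangement, both LE arrays below both control arrays, held for 9 members at D4 (20.2% of all genes, 30.2% of the bright genes) and 4 at D7 (23.5% and 30.2%). Set against the mean of the control arrays, the median member stood at 0.07 and 0.207 on the LE arrays of D4 and at 0.236 and 0.207 on those of D7, where the median of all genes stood at 0.073 and -0.011 at D4 and at 0.02 and 0.029 at D7. On LE D4 replicate 1 the members' median was thus no higher than that of all genes. Replicate 2 had the higher member median in all 3 groups of D4, with -0.054 and 0.054 for the control arrays. In the LE 0 members at D4 and 1 at D7, Ndufaf4, passed the fold rule of the study's methods, more than 2-fold in each replicate. All genes passed it as higher in 2.26% and as lower in 1.56% of cases at D4, and in 1.83% and 1.51% at D7.

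**Figure D1:**
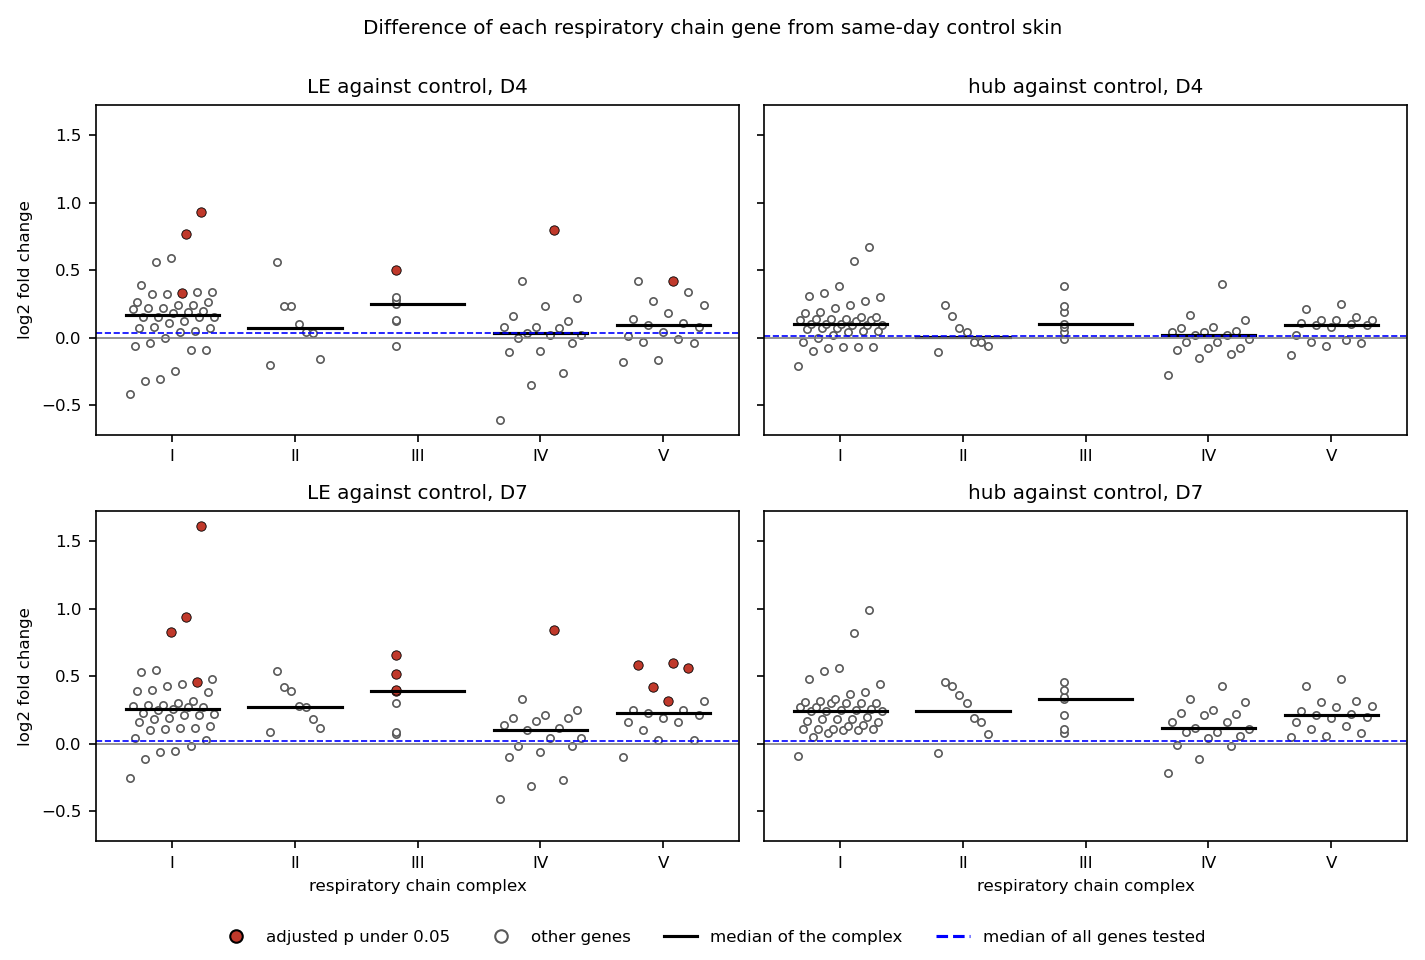
Log2 fold change of each of the 91 members, grouped by complex, for LE against control and hub against control at D4 and D7. Each point is a gene, red points passed the adjusted p threshold of 0.05, the black bar is the median of the complex and the blue dashed line the median of all genes; red points occur only in the LE panels, 6 at D4 and 14 at D7.

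The promoters of the members were read for the motifs of factors that are known for this group of genes. Nuclear respiratory factor 1 (NRF1) is a transcription factor known for its sites in promoters of respiratory chain genes, and GABPA and YY1 are others linked to them. The 300 bases around the start of each gene (250 before and 50 after, RefSeq, GRCm38.p6) were searched on both strands for NRF1 as GCGC, then any base, then TGCGC, for GABPA as CCGGAAGT and for YY1 as AAGATGGC, and matches of different motifs did not overlap. Of the 91 members, 74 had a promoter in the table. The NRF1 letters were present in 20 of them (27.0%), beside 5.19% of 27025 genes, the YY1 letters in 11 (14.9%, beside 3.19%) and the GABPA letters in 4 (5.41%, beside 4.31%). The 27025 are all genes with a promoter in the annotation, more than the 17097 on the array. They were not matched to the members in signal or base composition, and no difference was tested. Among the 13 members called in the LE on either day that had a promoter, 5 held the NRF1 letters (Atp5k, Atp5o, Ndufa11, Ndufa8 and Ndufaf4), and 15 of the 61 other members did. The 250 bases before the start are printed 5′ to 3′ for 3 called members with the NRF1 letters, which are in capitals and lie 113, 50 and 30 bases before the start in Ndufaf4, Atp5k and Ndufa8, and for Ndufa4, the member with the most stable call, which has no match. A match here is a run of letters and not a measured site.
Ndufaf4, chr4:24897833-24898082, plus strand: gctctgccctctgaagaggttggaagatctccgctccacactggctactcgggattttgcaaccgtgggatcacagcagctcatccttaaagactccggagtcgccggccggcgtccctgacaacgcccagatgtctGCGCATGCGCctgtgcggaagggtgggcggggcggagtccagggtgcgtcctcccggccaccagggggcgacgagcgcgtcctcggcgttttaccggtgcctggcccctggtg
Atp5k, chr5:108434400-108434649, minus strand: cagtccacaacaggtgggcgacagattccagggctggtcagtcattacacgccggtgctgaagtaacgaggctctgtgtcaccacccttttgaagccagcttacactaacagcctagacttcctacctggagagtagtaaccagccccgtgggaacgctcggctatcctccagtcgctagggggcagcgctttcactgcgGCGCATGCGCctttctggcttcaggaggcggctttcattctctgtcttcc
Ndufa8, chr2:36049339-36049588, minus strand: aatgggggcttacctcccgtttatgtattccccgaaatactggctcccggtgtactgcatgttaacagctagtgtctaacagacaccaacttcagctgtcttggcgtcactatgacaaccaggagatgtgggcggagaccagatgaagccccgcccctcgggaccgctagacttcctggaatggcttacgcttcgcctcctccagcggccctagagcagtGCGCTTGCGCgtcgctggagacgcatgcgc
Ndufa4, chr6:11907451-11907700, minus strand: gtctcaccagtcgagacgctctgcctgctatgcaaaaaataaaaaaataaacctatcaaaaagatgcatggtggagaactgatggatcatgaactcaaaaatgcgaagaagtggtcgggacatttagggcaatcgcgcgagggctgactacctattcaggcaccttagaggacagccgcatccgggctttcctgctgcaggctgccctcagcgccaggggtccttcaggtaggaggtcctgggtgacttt

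Complex I held the largest change of any member. Ndufaf4, a factor needed to assemble complex I and no part of the finished enzyme, read 7.98 and 8.29 in LE D4, 8.05 and 7.69 in hub D4, and 6.89 and 7.52 in control D4. At D7 it read 7.25 and 6.87 in the LE, 6.25 and 6.63 in the hub, and 5.74 and 5.15 in control skin. On both days the LE arrays lay above the control arrays, with the hub between the LE and control at D7. Ndufaf4 rose in the LE 1.91-fold at D4 (log2 0.93 ± 0.27 SE, adjusted p = 0.046) and 3.06-fold at D7 (1.61 ± 0.27, adjusted p = 0.0038). The D4 call was lost in 9 of 12 fits that left out 1 array, and the D7 call in none of them. Its second, dimmer probe set gave log2 fold changes of 0.22 and 0.88 in the LE. Of the 7 complex I assembly factors with this prefix Ndufaf4 was the 1 called on each day, and their median was 0.32 at D4 and 0.44 at D7.

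Among the 26 accessory subunits of complex I, Ndufb7 was called on both days. Ndufb7, a subunit on the side of the complex that faces the intermembrane space, read 10.05 and 10.44 in LE D4, 9.78 and 9.82 in hub D4, and 9.41 and 9.54 in control D4. At D7 it read 8.81 and 8.71 in the LE, 8.31 and 8.67 in the hub, and 7.89 and 7.96 in control skin. The 3 groups did not overlap on either day, in the order LE, hub, control. The rise in the LE was 1.71-fold at D4 (0.77 ± 0.15, adjusted p = 0.00903) and 1.78-fold at D7 (0.83 ± 0.15, adjusted p = 0.00629), and the second probe set gave 0.68 and 0.87. Ndufa11, a membrane subunit, was called at D4 by a small margin. It read 10.80 and 10.77 in LE D4 and 10.39 and 10.52 in control D4 (0.33 ± 0.09, 1.26-fold, adjusted p = 0.0433). That call was lost in each of the 12 fits without 1 array and with the probe sets averaged, and the second, dimmer probe set gave -0.26 at D4. Ndufa8, which like Ndufb7 faces the intermembrane space, read 10.02 and 9.93 in LE D7 and 9.49 and 9.55 in control D7, a 1.37-fold rise (0.46 ± 0.10, adjusted p = 0.0122), with 0.32 at D4 (adjusted p = 0.0583).

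Of the 6 core subunits of complex I that were measured, most of which carry the flavin or iron-sulfur clusters, only Ndufs8 was called, and only at D7. Ndufs8, an iron-sulfur subunit on the path of electrons to ubiquinone, read 8.27 and 7.90 in LE D7, 7.79 and 8.12 in hub D7, and 6.99 and 7.30 in control D7. Both wound regions lay above control skin and overlapped each other. The difference was 0.94 ± 0.23 in the LE (1.92-fold, adjusted p = 0.0223) and 0.82 in the hub (adjusted p = 0.156). Its dimmer probe sets gave 0.78, 0.17 and 0.58 in LE D7. At D4 Ndufs8 read 8.73 and 9.01 in the LE against 8.29 and 8.92 in control skin, groups that overlapped (0.26, adjusted p = 0.572). Ndufs1, the largest iron-sulfur subunit, differed by 0.22 at D4 and 0.28 at D7 (adjusted p = 0.444 and 0.284), and Ndufv1, the subunit that binds NADH, by 0.04 and 0.18 (adjusted p = 0.881 and 0.255). All 6 core subunits had a higher mean in the LE on both days. Complex I as a whole had 3 of 40 members called at D4 and 4 at D7, with medians of 0.16 and 0.25. That is near the 8.3% and 9.25% of all genes called higher, and below the 16.5% and 20.2% of the bright genes.

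Complex III had the highest share of called members, 4 of 7 at D7, against 1 of 7 at D4. All genes were called higher in 9.25% of cases at D7 and 8.3% at D4, and the bright genes in 20.2% and 16.5%. Uqcrq, a small subunit that touches cytochrome b, read 10.81 and 10.67 in LE D7, 10.53 and 10.54 in hub D7, and 10.12 and 10.05 in control D7. The groups did not overlap, and the hub again lay between. Uqcrq was 1.58-fold higher in LE D7 (0.66 ± 0.10, adjusted p = 0.00227), with 0.30 at D4 (adjusted p = 0.0763). The probe sets of Uqcrq did not give 1 answer: the 3 dimmer ones gave -0.07, 0.21 and -0.01 in LE D7, and the call was lost when the probe sets were averaged. Uqcrfs1, the Rieske iron-sulfur protein and a catalytic subunit, read 9.86 and 9.93 in LE D4, 9.82 and 9.73 in hub D4, and 9.55 and 9.24 in control D4. It rose in the LE 1.41-fold at D4 (0.50 ± 0.12, adjusted p = 0.0199) and 1.32-fold at D7 (0.40 ± 0.12, adjusted p = 0.0494), a D7 call lost in 10 of 12 fits without 1 array. Uqcr10 (0.52 ± 0.14, adjusted p = 0.0308) and Uqcr11 (0.39 ± 0.11, adjusted p = 0.0452), both small accessory subunits, were called at D7. The dimmer probe sets of Uqcr10 gave -0.11 and 0.35 in LE D7, and its call was lost with the probe sets averaged. Uqcrc1, a core protein of the matrix side, differed by -0.06 at D4 and 0.07 at D7 (adjusted p = 0.823 and 0.767). The median of complex III in the LE was 0.25 at D4 and 0.39 at D7. The D7 calls of Uqcrfs1, Uqcr10 and Uqcr11 were each lost under centring, quantile and loess normalization, which leaves Uqcrq called, and the call of Uqcr11 was also lost in 11 of 12 fits without 1 array.

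In complex V the calls lay in the membrane part and the stalk and not in the catalytic head. On the chosen probe sets, none of the 5 F1 subunits was called on either day by limma (0 at an unadjusted p under 0.05), and their log2 fold changes ranged between -0.03 and 0.09 at D4 and between 0.16 and 0.23 at D7. The dimmer probe sets went outside these ranges, with -0.39 and -1.0 for Atp5c1 and 0.04 and 0.45 for Atp5d. With the probe sets averaged, Atp5c1 was called lower in LE D7. Atp5b, the catalytic beta subunit, read 11.40 and 11.26 in LE D4 against 11.22 and 11.28 in control D4, and 10.61 and 10.46 in LE D7 against 10.38 and 10.27 in control D7 (0.08 and 0.21, adjusted p = 0.75 and 0.226). Atp5a1, the alpha subunit, gave 0.09 and 0.16 (adjusted p = 0.657 and 0.345). Of the 12 members of the membrane part, the stalk and their associates, 1 was called at D4 and 5 at D7, over a range of -0.10 to 0.60 at D7. Beside this, 8.3% and 9.25% of all genes were called higher, and 16.5% and 20.2% of the bright genes. No difference between these parts of complex V was tested.

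Atp5pb, subunit b of the stalk that holds the head still, was the complex V member called on both days. It read 10.38 and 10.35 in LE D4, 10.15 and 10.25 in hub D4, and 9.97 and 9.92 in control D4, and at D7 9.85 and 9.83 in the LE, 9.52 and 9.67 in the hub, and 9.42 and 9.14 in control skin. The order LE, hub, control held on both days with no overlap. The rise in the LE was 1.34-fold at D4 (0.42 ± 0.11, adjusted p = 0.037) and 1.47-fold at D7 (0.56 ± 0.11, adjusted p = 0.0107). The D4 call was lost under 7 other settings, among them centring, quantile and loess normalization, while the D7 call stood under each of them. Atp5g1, which encodes the c subunit of the rotor ring, read 9.57 and 9.49 in LE D7, 9.21 and 9.51 in hub D7, and 9.03 and 8.82 in control D7, a 1.52-fold rise in the LE (0.60 ± 0.16, adjusted p = 0.0328). Its second probe set gave -0.06. Atp5k, subunit e, read 10.34 and 10.28 in LE D7, 10.16 and 10.27 in hub D7, and 9.73 and 9.74 in control D7 (0.58 ± 0.12, 1.49-fold, adjusted p = 0.0121). Atp5mpl (0.42 ± 0.12, adjusted p = 0.0416), a small membrane proteolipid, and Atp5o (0.32 ± 0.09, adjusted p = 0.043), which joins the stalk to the head, completed the calls at D7, and these were lost in 11 and 10 of 12 fits without 1 array. The second probe set of Atp5o gave 0.13 in LE D7, and its call was lost with the probe sets averaged. Of the calls at D7, those of Atp5k, Atp5pb, Uqcr10, Ndufa8, Atp5mpl, Uqcr11 and Atp5o lay past the 6 with the largest change and were chosen for naming after their values were seen.

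In complex IV, 1 of 19 members was called, the same gene on both days, beside 8.3% of all genes called higher at D4 and 9.25% at D7. Ndufa4, first assigned to complex I and now known as a subunit of complex IV, read 11.87 and 11.73 in LE D4, 11.48 and 11.32 in hub D4, and 11.10 and 10.90 in control D4. At D7 it read 10.74 and 10.68 in the LE, 10.21 and 10.39 in the hub, and 9.92 and 9.82 in control skin. On both days the 3 groups did not overlap and fell in the order LE, hub, control. Ndufa4 rose 1.74-fold in the LE at D4 (0.80 ± 0.12, adjusted p = 0.00177) and 1.79-fold at D7 (0.84 ± 0.12, adjusted p = 0.00162), and both calls stood in each fit without 1 array and under each of the other settings tried. None of the other subunits of complex IV was called. Cox8a and Cox6b1 marked the ends of their range at D4, at -0.61 and 0.23, and at D7 the highest was Cox6b1 at 0.33 (adjusted p = 0.0976). Cox4i1, whose protein is a site of regulation by ATP, differed by -0.10 at D4 and -0.02 at D7 (adjusted p = 0.606 and 0.927), Cox5a by 0.02 and 0.12, and Cox5b by 0.02 and 0.19. The median over the 19 members of complex IV was 0.03 at D4 and 0.10 at D7, and over the 10 subunits without the restricted isoforms and Cox7a2l it was 0.05 and 0.17.

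No member grouped with complex II, the succinate dehydrogenase of the tricarboxylic acid cycle, was called in the LE on either day by limma. The group holds the assembly factors Sdhaf1, Sdhaf2, Sdhaf3 and Sdhaf4 beside the subunits Sdha, Sdhb, Sdhc and Sdhd. At an unadjusted p under 0.05, 2 of 8 were higher at D4 and 3 of 8 at D7. All 8 had a higher mean in the LE at D7, and the median over factors and subunits together was 0.28. At D7 the factors gave 0.42, 0.39, 0.28 and 0.09, and the subunits 0.12, 0.27, 0.18 and 0.54. At the same unadjusted threshold, 15.1% of all genes were higher at D4 and 16.5% at D7. Sdhd, one of its membrane anchors, read 7.16 and 7.79 in LE D4 against 6.95 and 6.88 in control D4, and 6.67 and 6.20 in LE D7 against 6.04 and 5.75 in control D7 (0.56 and 0.54, adjusted p = 0.164 and 0.171). The LE arrays lay above the control arrays on both days but were far apart from each other. Sdha, the flavoprotein, differed by 0.23 and 0.12 (adjusted p = 0.139 and 0.491), while its 3 dimmer probe sets gave 0.60, -0.08 and -0.11 at D4 and 0.75, -0.14 and 0.03 at D7. Sdhb, the iron-sulfur protein, differed by -0.20 and 0.27 (adjusted p = 0.51 and 0.289).

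**Figure D2:**
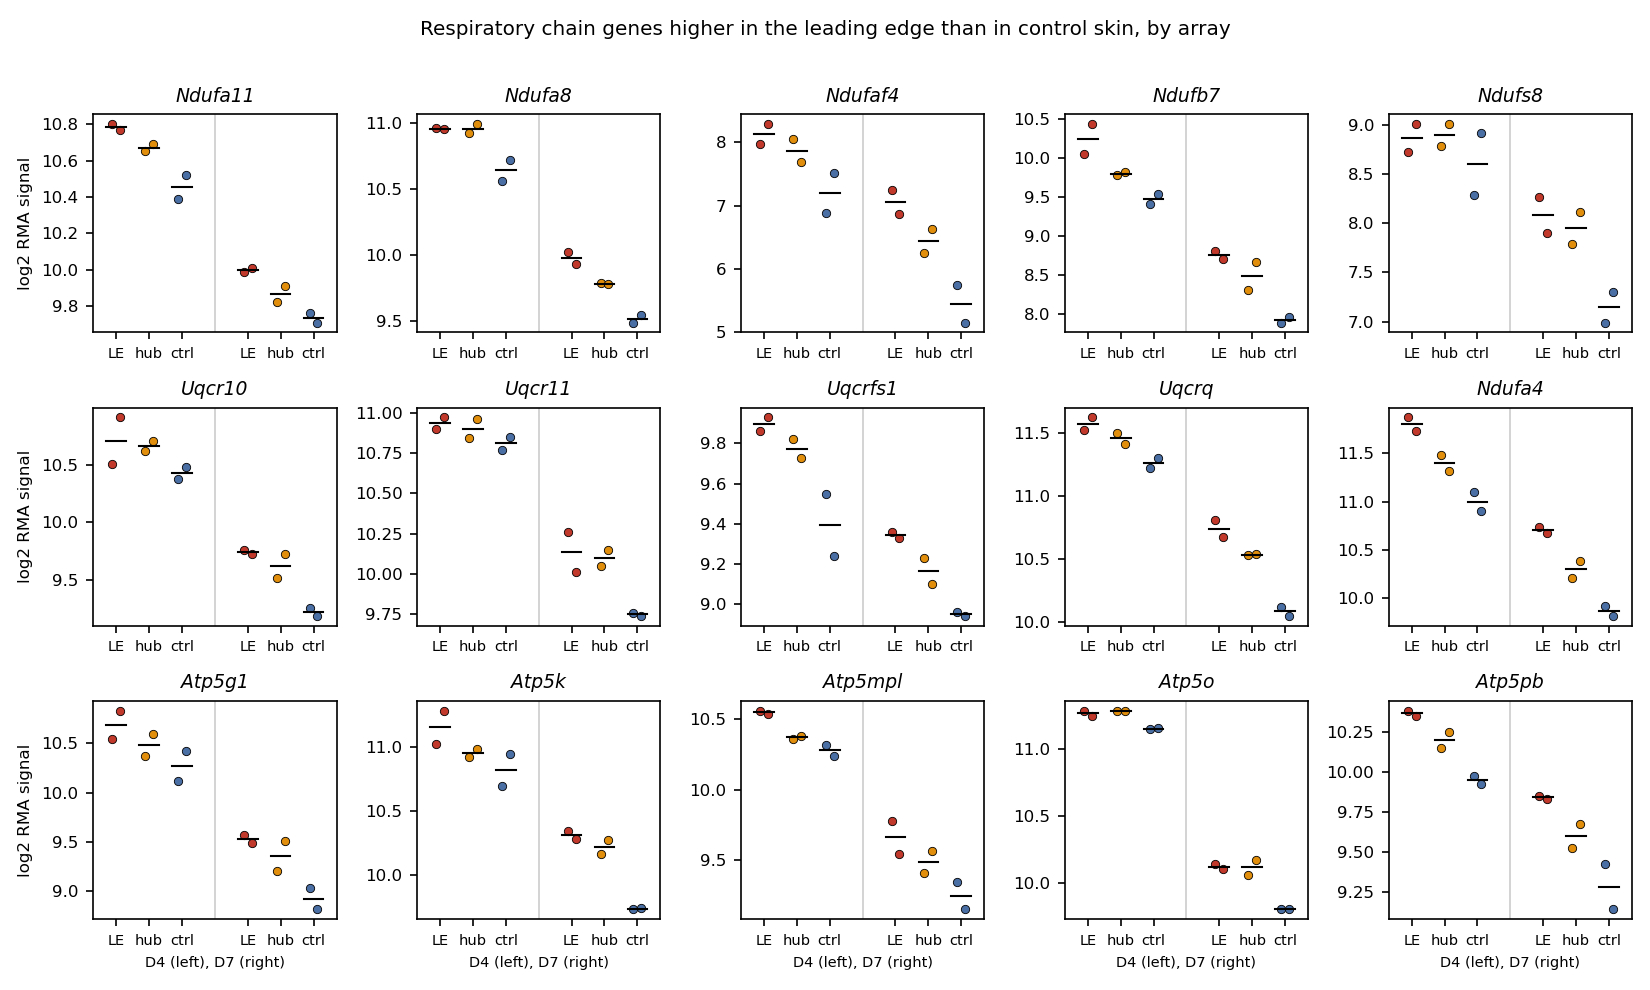
Log2 signal of the 15 members called in the LE on either day, by array, with LE, hub and control in that order for D4 on the left and D7 on the right of each panel. Points are arrays and lines are group means (n = 2 arrays); for Ndufa4 the LE arrays read 11.87 and 11.73 at D4 and 10.74 and 10.68 at D7, above every hub and control array of the same day.

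The 15 members called on either day make 16.5% of the 91, beside 12.3% of all genes called higher in the LE on either day. Those called on both days were Ndufa4, Ndufb7, Ndufaf4, Uqcrfs1 and Atp5pb (5 members, 5.49%, beside 5.21% of all genes). Of these, the D4 calls of Ndufaf4 and Atp5pb were each lost under 7 other settings and the D7 call of Uqcrfs1 under 5. The calls made near the threshold depended on how the arrays were scaled. When arrays were centred on their medians, quantile normalized or loess normalized within the day, 8 of the 14 calls at D7 stood under all 3 scalings (Ndufa4, Ndufb7, Ndufaf4, Ndufs8, Ndufa8, Uqcrq, Atp5k and Atp5pb), and the members' median at D7 became 0.18, 0.14 and 0.13. The D7 count was 3 without LE D7 replicate 1 and 5 without either control D7 array, and the D4 count was 1 without LE D4 replicate 2.

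Some members stood below control skin in the LE, and none of them passed the test as run. Cox7a2l, which helps join complex III and complex IV into a supercomplex, read 11.15 and 11.29 in LE D4, 11.42 and 11.55 in hub D4, and 11.50 and 11.63 in control D4, and at D7 10.45 and 10.34 in the LE, 10.64 and 10.78 in the hub, and 10.66 and 10.67 in control skin. The LE arrays were the lowest on both days, below all hub and control arrays. The log2 fold change was -0.35 ± 0.11 at D4 (adjusted p = 0.0623) and -0.27 at D7 (adjusted p = 0.136), and the other probe sets of the gene gave -0.42 and -0.42 at D4 and -0.28 and -0.30 at D7. Under quantile or loess normalization Cox7a2l was called lower in the LE on both days, with a trended prior on both days, and at D4 also with averaged probe sets and without dim genes. Ndufa6, an accessory subunit of complex I, read 9.15 and 9.38 in LE D4 against 9.53 and 9.84 in control D4 (-0.42 ± 0.14, adjusted p = 0.0743), and the difference at D7 was -0.02. It too was called lower at D4 under quantile or loess normalization. Cox8a, a small subunit of complex IV, had the lowest log2 fold change of any member at D4 (-0.61 ± 0.30, adjusted p = 0.247), which rested on 1 array: it read 9.52 and 10.70 in LE D4 against 10.57 and 10.88 in control D4, and that gap of 1.19 was the widest of any member between the arrays of a group. Cox7a2l and Ndufa6 were named after their values were seen.

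Several subunits of complex IV have paralogs with restricted use, such as Cox6a2, Cox7a1 and Cox8b of heart and skeletal muscle and Cox6b2, Cox7b2 and Cox8c of testis. None of the 8 such members was called in any of the 6 comparisons by limma (in the LE against control, 1 was higher at D4 and 1 lower at D7 at an unadjusted p under 0.05, beside 15.1% and 10.7% of all genes), and Cox7b2, Cox6b2, Cox4i2, Cox8b and Cox7a1 were among the 6 members below the median of the gene means. The exception in brightness was Ndufa4l2, the paralog of Ndufa4 known to be induced by low oxygen through HIF-1. It read 10.78 and 10.87 in LE D4, 10.49 and 10.57 in hub D4, and 10.23 and 10.58 in control D4, and at D7 8.62 and 8.67 in the LE, 9.07 and 9.27 in the hub, and 9.03 and 9.08 in control skin. The LE was the highest group at D4 and the lowest at D7, and its arrays overlapped neither other group on either day. The LE differed from control skin by 0.42 ± 0.13 at D4 (adjusted p = 0.0594) and -0.41 ± 0.13 at D7 (adjusted p = 0.0618), neither of which passed. The change between the days, -0.83 ± 0.18, had an unadjusted p of 0.00114 in limma and an adjusted p of 0.242. At D7 the lower level was called under quantile or loess normalization, without dim genes, with a trended prior and with the replicate block. It was also called with probe sets averaged, although Ndufa4l2 has 1 probe set and its own values were then unchanged. Ndufa4 itself was higher on both days.

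**Figure D3:**
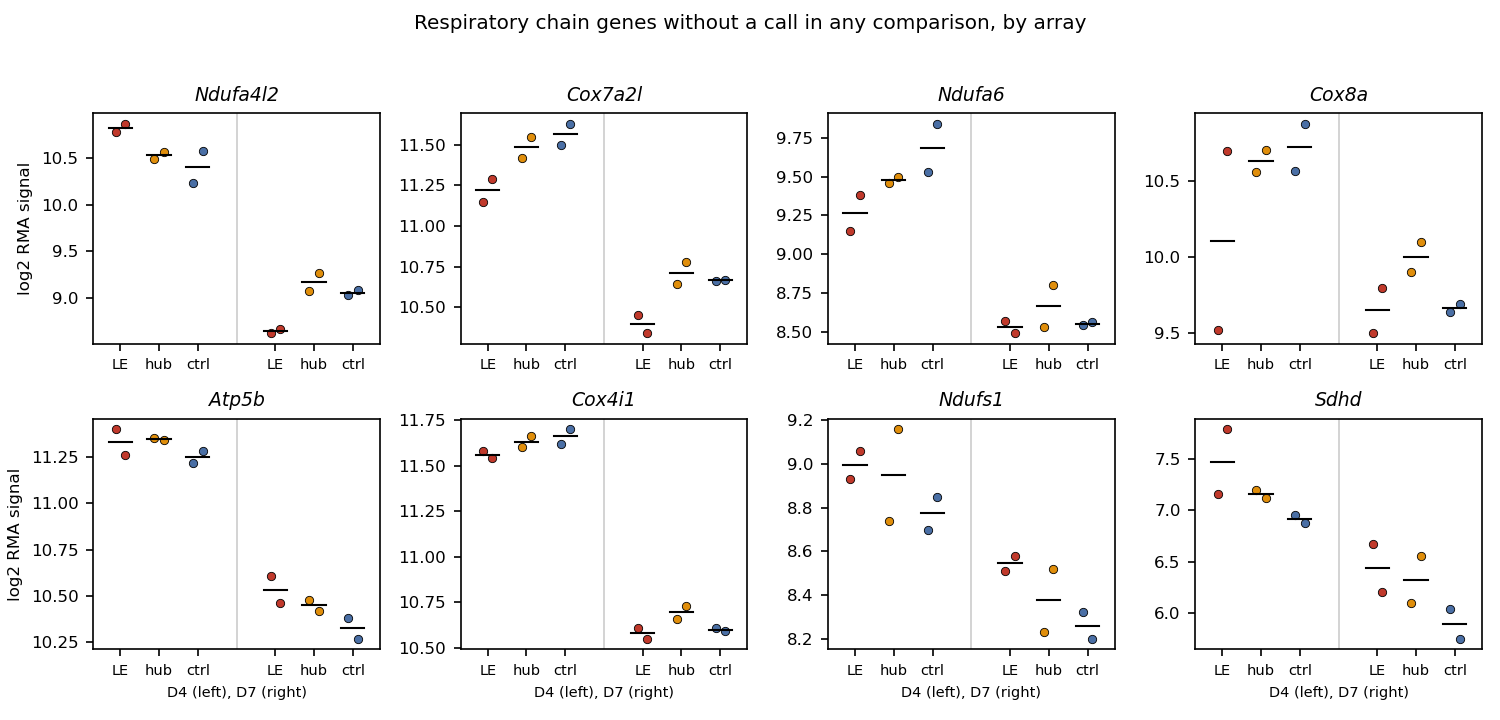
Log2 signal by array of 8 members with no call in any comparison (Ndufa4l2, Cox7a2l, Ndufa6, Cox8a, Atp5b, Cox4i1, Ndufs1 and Sdhd), with LE, hub and control in that order for D4 on the left and D7 on the right. Points are arrays and lines group means (n = 2 arrays); Ndufa4l2 is highest in the LE at D4 (10.78 and 10.87) and lowest there at D7 (8.62 and 8.67).

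The hub was set against the same control arrays as the LE, so both comparisons of a day share them. In the hub 0 of 91 members were called at D4 and 0 at D7 by limma, where 0.222% of all genes were called higher and 0.105% lower at D4, and 0.591% and 0.17% at D7. Of the bright genes, 0.292% were called higher at D4 and 1.35% at D7. At an unadjusted p under 0.05, 6 members were higher and 0 lower at D4 (6.9% and 4.07% of all genes), and 26 higher and 0 lower at D7 (8.28% and 4.38%). A trended prior for the spread called 4 members higher in hub D7 (Atp5k, Atp5o, Ndufa4 and Uqcrq). The median log2 fold change in the hub was 0.08 at D4 and 0.21 at D7, beside 0.01 and 0.02 for all genes and 0.05 and 0.08 for the bright genes. At D4 65 of 91 members had a higher mean in the hub (51.5% of all genes, 59.6% of the bright genes). At D7 85 of 91 did (54.5% and 67.5%), all 65 bright members included. Both hub arrays lay above both control arrays for 71 members at D7 (78.0%, beside 25.8% of all genes and 45.3% of the bright genes) and for 35 at D4 (38.5%, beside 21.2% and 37.3%). Both lay below for 1 member at D7 (18.1% and 18.7%) and 5 at D4 (18.0% and 20.3%). At D7 the difference was thus small and nearly uniform in sign, and no gene of it passed the test alone. The median member stood 0.16 and 0.282 above the mean of the controls on the 2 hub arrays of D7.

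The hub members with the lowest p at D7 were Uqcrq (0.46, adjusted p = 0.0854), Atp5k (0.48, adjusted p = 0.129) and Ndufaf4 (0.99, adjusted p = 0.143). Ndufa4 stood at 0.40 in hub D4 (adjusted p = 0.21) and 0.43 in hub D7 (adjusted p = 0.148). By complex, the hub medians at D7 were 0.25 for complex I, 0.24 for complex II, 0.33 for complex III, 0.12 for complex IV and 0.21 for complex V, and at D4 they ran between 0.01 for complex II and 0.10 for complexes I and III. In hub D7 all 26 accessory subunits of complex I, all 7 members of complex III and all 17 of complex V had a higher mean than in control skin.

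Between the wound regions themselves 0 of 91 members were called by limma on either day, beside 2.61% of all genes called as LE above hub and 2.15% as LE below hub at D4, and 1.33% and 1.4% at D7. At an unadjusted p under 0.05, 4 members were higher and 1 lower in the LE at D4, whereas at D7 2 were higher and 4 lower, shares below those of all genes in the same direction (8.86% and 7.46%, then 8.48% and 7.3%). The medians of the members were 0.04 at D4 and 0.01 at D7, beside 0.03 and 0.01 for all genes, and 57 and 51 of 91 were above 0 (56.3% and 52.6% of all genes). Both LE arrays lay above both hub arrays for 18 members and below them for 12 at D4 (25.2% and 18.5% of all genes), and for 17 and 14 at D7 (25.7% and 21.5%). Ndufa4 exceeded its hub level in the LE by 0.40 at D4 (adjusted p = 0.098) and 0.41 at D7 (adjusted p = 0.112), and a trended prior called it on both days. Ndufa4l2 was lower in the LE by 0.53 on the log2 scale at D7 (-0.53, adjusted p = 0.066), called with array weights, with a trended prior and with the replicate block. Ndufb11, an accessory subunit of complex I, stood at -0.41 in the LE against the hub at D7 (adjusted p = 0.134), with 10.44 and 10.39 on the LE arrays against 10.69 and 10.95 on the hub arrays. The log2 fold change of Cox7a2l was -0.26 at D4 and -0.31 at D7.

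Whether the wound response of the members differed between D4 and D7 was tested as the difference of the differences. No member was called for the LE against control, for the hub against control or for the LE against the hub, and across all genes 1 was called with a larger and 4 with a smaller value at D7 for the LE against control (0.00585% and 0.0234%), 0 for the hub against control, and 0 and 3 for the LE against the hub (0.0% and 0.0175%). At an unadjusted p under 0.05, 2 members were larger and 2 smaller at D7 for the LE against control (3.98% and 3.84% of all genes), 1 larger and 0 smaller for the hub (2.49% and 2.08%), and 0 larger and 1 smaller for the LE against the hub (2.32% and 2.8%). The larger count of calls in the LE at D7 than at D4 is therefore not shown to be a change between the days for any 1 gene. The median of the changes was 0.10 for the LE, 0.14 for the hub and -0.02 for the LE against the hub, with 72, 75 and 42 of 91 above 0 (50.4%, 53.1% and 47.7% of all genes).

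**Figure D4:**
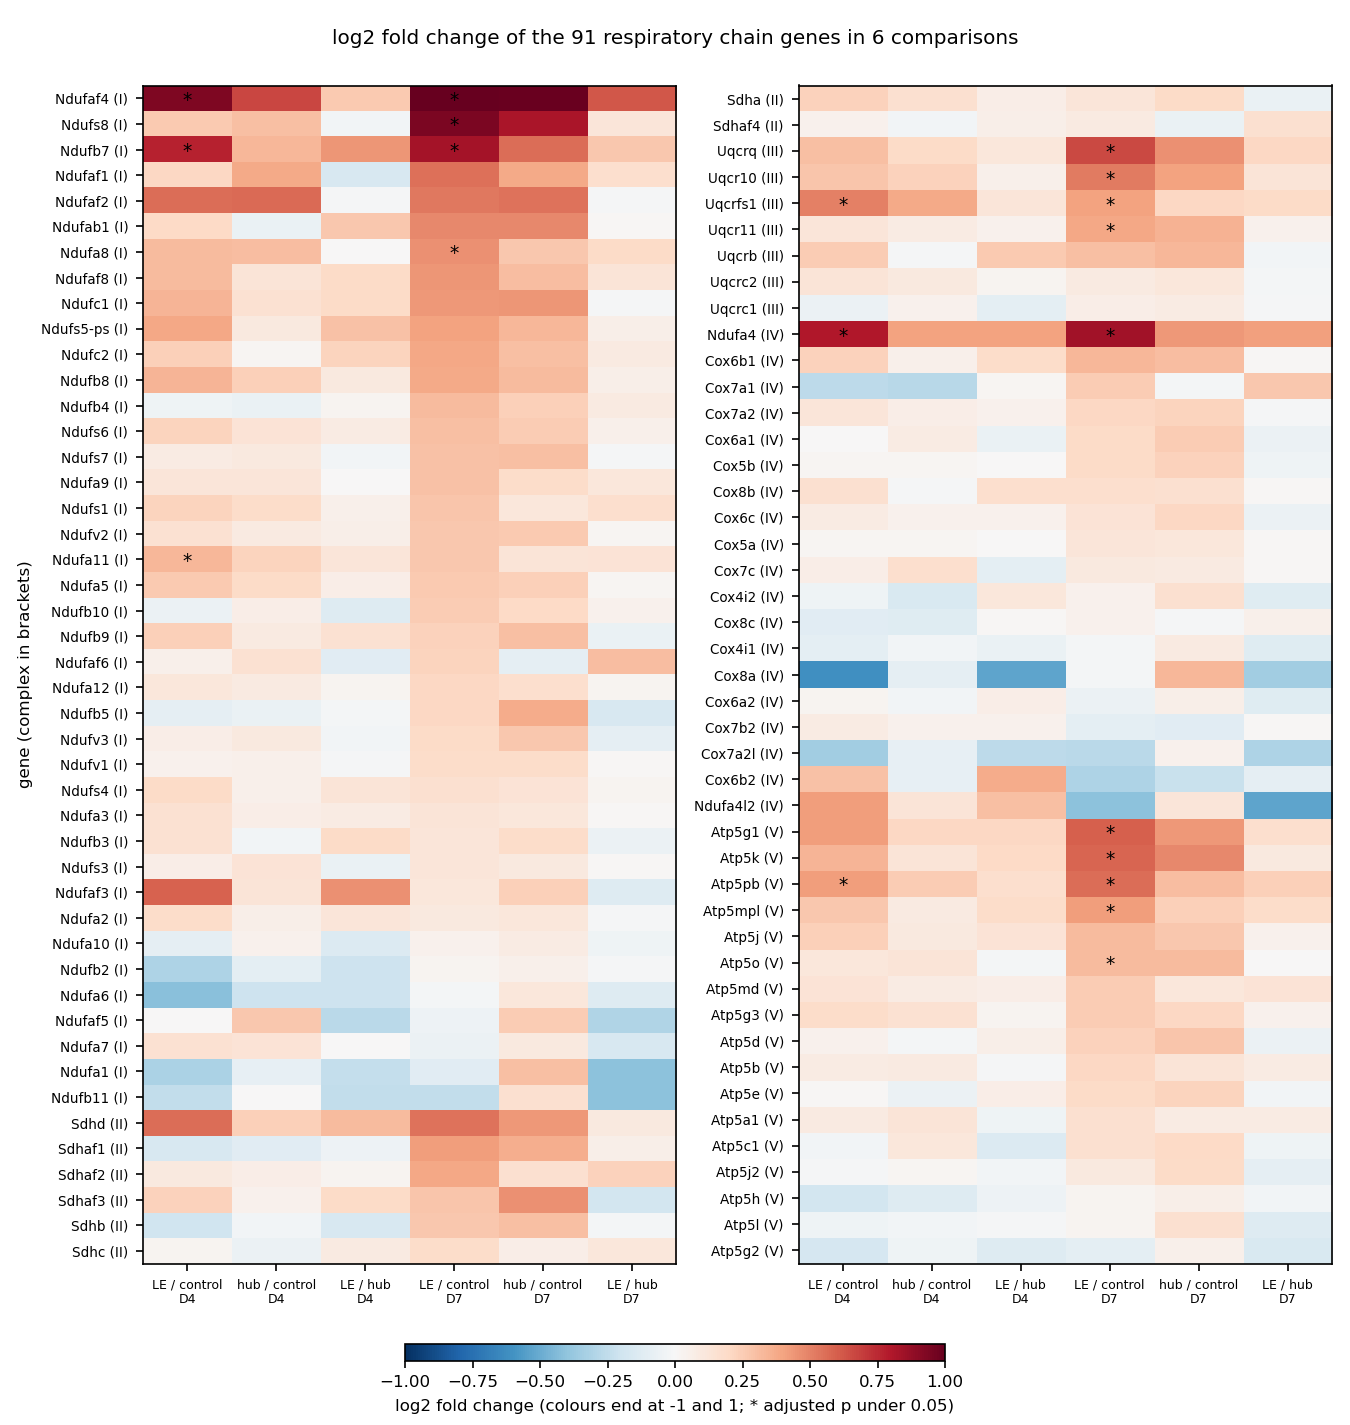
Log2 fold change of the 91 members (rows, grouped by complex) in the 6 comparisons (columns), with colours that end at -1 and 1 and asterisks on values with an adjusted p under 0.05. Asterisks occur only in the columns of the LE against control, 6 at D4 and 14 at D7.

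Other genes of the same organelle were read from lists. By share of genes called higher in the LE, the mitochondrial ribosomal proteins (15.1% at D4 and 42.5% at D7) and the genes of import, cristae, carriers and dynamics (15.8% and 42.1%) stood above the members' 6.59% and 15.4%. All genes gave 8.3% and 9.25%, and the bright genes 16.5% and 20.2%. Of 73 mitochondrial ribosomal proteins, which translate the subunits encoded by mitochondrial DNA, 11 were called higher at D4 and 31 at D7 and 0 lower on either day, with medians of 0.24 and 0.42. Mrpl20 stood at 0.80 ± 0.10 at D4 (adjusted p = 0.000888). Of 38 genes of protein import, cristae, carriers and dynamics, 6 were higher at D4 and 16 at D7, with 0 lower and medians of 0.27 and 0.36. Timm8b, a chaperone of the intermembrane space, rose on both days (1.10 and 1.20, adjusted p = 0.00527 and 0.00367), and Phb, a prohibitin, and Tomm22, an import receptor, both by 1.01 at D7. Of 43 measured assembly factors outside the symbol rule, 2 were higher and 1 lower at D4, and at D7 8 were higher. They include Cox17, the copper chaperone of complex IV (0.70 and 0.99, adjusted p = 0.0316 and 0.00656), Cox10, which makes its haem (0.64 and 0.68), and Lrpprc, which stabilises mitochondrial messenger RNA (0.86 at D7, adjusted p = 0.0135). Acad9, an assembly factor of complex I, fell by 0.37 on the log2 scale at D4 (adjusted p = 0.0479).

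Electron carriers around the complexes were among the genes called higher. Of 9 such genes measured of 36 listed, 3 were higher at D4 and 4 at D7, among them Cycs, cytochrome c itself (0.44 and 0.75, adjusted p = 0.0244 and 0.00203), Cyc1, the cytochrome subunit of complex III whose symbol falls outside the rule (0.36 and 0.55, adjusted p = 0.0336 and 0.00492), and Sqor, which feeds electrons from sulfide into ubiquinone (1.95 and 1.57). Of 19 genes of the tricarboxylic acid cycle and pyruvate dehydrogenase, 2 were higher at D4 and 4 at D7, with Dlst and Mdh2 called on both days. Across all genes 8.3% were called higher at D4 and 9.25% at D7, and 5.83% and 5.37% lower. The bright genes were called higher in 16.5% and 20.2% of cases. Counts in the short lists of this paragraph are to be read against these shares, and no difference from them was tested. Of 25 measured regulators of mitochondrial biogenesis and mitochondrial DNA, 0 were higher and 1 lower at D4 (Top1mt, -0.53), and 1 higher at D7 (Clpp, a matrix protease, 0.67). Of 11 mitochondrial antioxidant enzymes, 2 were higher at D4 and 3 at D7, with Prdx3, a peroxiredoxin, called on both days (1.02 and 0.85). Of 17 genes of fatty acid oxidation, the D4 calls were 2 higher and 2 lower and the D7 calls 2 higher and 1 lower. Cpt2, which admits long-chain fatty acids to the matrix, stood at 1.35 and 1.61 and Eci1, an enoyl-CoA isomerase, at -0.88 and -0.95.

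Glycolysis had a larger share of calls in the LE than the chain, with 13 of 18 genes called higher at D4 and 10 at D7, 1 called lower on each day, and medians of 0.49 and 0.51. For this list and those below, the shares of all genes were 8.3% and 9.25% called higher and 5.83% and 5.37% lower. The bright genes gave 16.5% and 20.2% called higher. Slc16a3, the lactate exporter, had the largest change of the list (2.97 and 2.96, adjusted p = 4.86e-05 and 6.58e-05), and Pfkm, the muscle form of phosphofructokinase, was lower (-0.98 and -0.73). Of 13 genes tied to the response to low oxygen (HIF and its regulators, mitophagy receptors, pyruvate dehydrogenase kinases, Higd1a and the members Ndufa4l2 and Cox4i2), 3 were called higher at D4 and 4 at D7, and 1 was called lower on each day. Bnip3, a receptor for the removal of mitochondria, stood at 1.90 at D4 and 0.87 at D7 (adjusted p = 5.22e-05 and 0.00407), Hif1a at 0.82 and 0.58, Vhl, which marks HIF for destruction, at 0.66 at D7 (adjusted p = 0.0338), and Pdk2, a kinase that inhibits pyruvate dehydrogenase, at -1.43 and -1.26. For comparison with other large complexes of the cell, 15 of 37 proteasome subunits were higher at D4 and 24 at D7 with 0 lower (medians 0.32 and 0.40), whereas of 70 cytosolic ribosomal proteins 0 were called at D4 and 1 at D7 (Rpl7l1, 0.70), with medians of -0.13 and -0.03. The respiratory chain, with medians of 0.12 and 0.21, lay between those lists. None of the differences between lists was tested. In the hub at D7 calls were few: 3 mitochondrial ribosomal proteins (Mrpl34, Mrpl57 and Mrpl18), Ogdh of the tricarboxylic acid cycle (0.68), Cpt2 (1.17) and Slc16a3 (1.36). Across all genes 0.591% were called higher there.

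**Figure D5:**
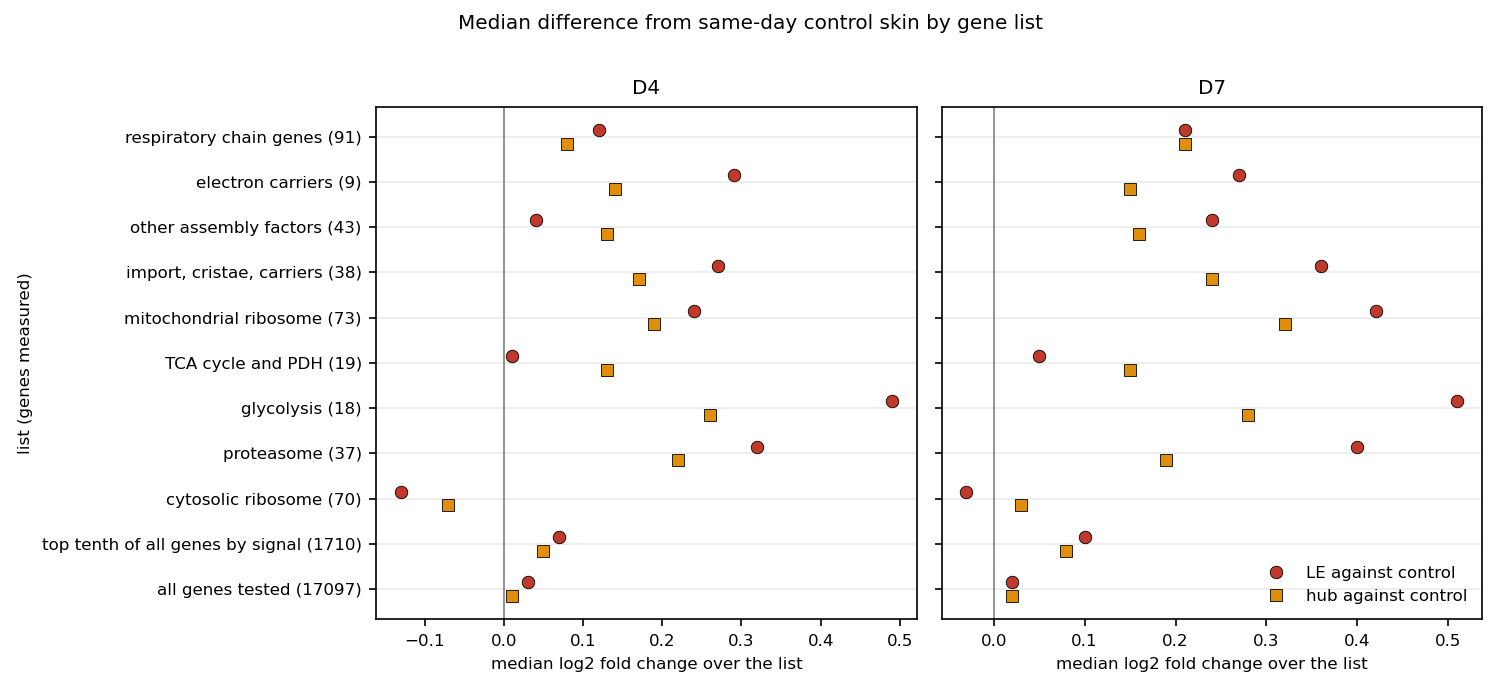
Median log2 fold change of the respiratory chain genes and of the other lists at D4 and D7, with circles for the LE and squares for the hub, each against control skin of the same day. In the LE at D7 the respiratory chain lies at 0.21, below the mitochondrial ribosomal proteins at 0.42 and above the cytosolic ribosomal proteins at -0.03.

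The choice of probe set bore on the size of the shift. Over all 153 probe sets of the members, 9 were called higher and 2 lower in LE D4, 26 higher and 1 lower in LE D7, and 0 in the hub or between the regions by limma. The 62 probe sets that were not chosen had medians of -0.01 at D4 and 0.16 at D7 for the LE, and for the hub 0.03 and 0.17. Among them the median of LE D4 was thus not above 0, while those of D7 were close to the chosen ones in both regions. With the probe sets of a gene averaged, Atp5c1, the gamma subunit of the rotor shaft, was called lower in LE D7 (-0.42).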

How the data were processed

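RNA of 300 sorted basal cells per sample was amplified over 25 cycles and hybridised to 12 Affymetrix mouse whole-genome PM arrays. The deposited values are log2 signals that the authors summarised and normalized with RMA (software version not given in the sources used here). Its quantile step gives arrays normalized together a common distribution, so a shift shared by most genes would not be seen among them. Array medians were close within a day (5.4 to 5.47 at D4, 4.25 to 4.28 at D7) but not between the days. Whether the days were normalized separately was not tested. The files give no counts, so precision rests on how many arrays there are. Of 45141 probe sets, 28898 were annotated to 1 gene and gave 17097 genes, of which none was filtered. All 12 value columns were used. A single limma 3.58.1 model (R 4.3.3) of the 6 groups, with 6 residual degrees of freedom and no block, gave the 6 comparisons of regions and the 3 changes between days, adjusted over all genes (Benjamini-Hochberg, 0.05). The script was tested on simulated data. Members and gene lists were chosen with earlier results of these data known. Named were up to 6 called members a direction and comparison with the largest change, the member of each complex with the largest change in the LE, core subunits, restricted paralogs, and up to 4 called genes of each other list. Gene IDs of 28689 probe sets were found in RefSeq. Protein sequences were not used here. Alternatives were other scalings (median centring, quantile, loess), array weights, averaged probe sets, leaving out dim genes, a trended prior, a replicate block, models of only the same day's 6 arrays or the 4 compared, and leaving out each array.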

Additional observations from a re-analysis of the deposited data

How the results depend on the processing

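With 2 arrays a group, calls near the threshold moved with the settings. For the LE against control at D4, 6 members were called higher: the count was 3 with arrays centred, 3 with loess, 3 with array weights, 10 with a trended prior, 2 with the 6 arrays of the day and 1 with the 4 arrays compared. Lower calls at D4, 0 as reported, were 2 with quantile, 2 with loess, and 1 each with averaged probe sets, without dim genes and with a trended prior. At D7, 14 higher became 8 with each of the 3 scalings and 24 with a trended prior. The 0 lower became 2 with quantile, loess, averaged probe sets or a trended prior, and 1 without dim genes or with the replicate block. The D7 median of 0.21 was 0.18 centred, 0.14 with quantile and 0.13 with loess. A trended prior called 4 members higher in hub D7, and for the LE against the hub 1 higher at D4, 1 higher at D7 and 2 lower at D7. Array weights and the replicate block each called 1 lower there.

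Leaving out 1 array gave 1 to 5 higher and 0 to 2 lower calls in LE D4 and 3 to 13 higher and 0 to 1 lower in LE D7, and 0 to 1 lower for the LE against the hub on each day. A lone array was then assumed to vary like the other groups. The D4 count was 3 without LE D4 replicate 1, either hub D4 array, control D4 replicate 1 or either LE D7 array, and 1 without LE D4 replicate 2. The medians ranged over 0.07 to 0.21 (LE D4), 0.21 to 0.24 (LE D7), 0.03 to 0.12 (hub D4), 0.16 to 0.28 (hub D7), -0.02 to 0.11 (LE against hub, D4) and -0.03 to 0.06 (D7). Same-numbered arrays deviated together at D4 (correlations 0.17 to 0.245) but hardly at D7 (0.002 to 0.067), so the numbers were not taken to pair arrays throughout. With the replicate block the higher counts were 4 at D4 and 13 at D7. Changes between days were not refitted on the 6 or 4 arrays. The causes were not tested.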
